A study of Ovis aries with 36 samples.

Results

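The 8 libraries described here are the subcutaneous adipose pools of fetuses whose dams were fed dried corn distillers grains (DG, 4 pools) or haylage (HY, 4 pools; the sample labels call this diet Hay), out of 36 libraries in the series. Members were chosen by the tissue and diet labels of the samples alone. The dams were Polypay ewes mated to the same sire, fed their diet from mid gestation on, and the fetuses were taken in late gestation from a fat depot near the shoulder blade. HY was alfalfa haylage eaten ad libitum. DG was limit-fed to an equal energy intake and supplied more crude fat, less crude protein and less fibre than HY. In each diet, 2 pools held RNA of female fetuses (F1 and F2) and 2 of male fetuses (M1 and M2). Every library is a pool, and some pools of the same diet hold fetuses of the same dam, so the spread between pools is not that of unrelated animals. The 4 subcutaneous pools of the third diet, whole shell corn (CN), were not compared in the contrast. They did enter the filter, the scaling and the fits, and so the estimates of the spread and of the muscle adjustment described below. RNA was sequenced from single ends, and the values are reads counted per locus of an assembly on the sheep genome Oar_v3.1.

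White adipose tissue stores fatty acids as triglyceride in lipid droplets, takes them up from lipoproteins or makes them from acetyl-CoA, and releases them by lipolysis. Distillers grains are what remains of corn after the starch is fermented, so that fat and fibre take the place of starch as energy sources. In the sheep fetus most fat is laid down late in gestation, and the subcutaneous depot lies directly over skeletal muscle.

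The pools of DG held 9416187 to 20272024 counts on loci and those of HY 9658737 to 17686701, with medians of 16214094.5 and 12035986. The pools differed far more in skeletal muscle RNA. The summed level of 25 skeletal muscle markers (myosins, troponins, creatine kinase and the like) was 185600 CPM (counts scaled to a common library size) in DG F1, 87890 in DG F2, 1278 in DG M1 and 109000 in DG M2. In HY it was 1107 CPM in F1, 144800 in F2, 3838 in M1 and 41400 in M2. The diets overlapped, with 3 muscle-rich pools in DG and 2 in HY, and the highest pool exceeded the lowest by 167.6-fold. The mean log2 difference, DG minus HY, was 1.62, within the spread of the pools (p = 0.514 by an exact two-sided permutation of the 4 and 4 pools, which can give no p below 0.0286). On CPM of the total, the scale shared with the muscle libraries, DG F1 and HY F2 reached 106.8% and 92.4% of the mean of the longissimus dorsi pools, whereas DG M1, HY F1 and HY M1 stayed at 1.062%, 0.8845% and 3.235%. The markers of fat cells were present in every pool. Of 16 adipocyte markers, 12 had a locus, none of them at 0, and their sum was 1920 to 12970 CPM of the total in the 8 pools against 128.7 to 259.9 in the muscle pools. Leptin (LEP) was listed at 0 in all 12 muscle pools and was between 5.919 and 54.67 CPM in the 8 subcutaneous pools. PLIN1, which coats the lipid droplet, was between 3.711 and 41.5 CPM, below the 401.8 to 940.7 CPM of perirenal fat.

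The adipocyte marker sum was 2479 CPM in DG F1, 5111 in DG F2, 7683 in DG M1 and 2912 in DG M2. In HY it was 10360 CPM in F1, 4198 in F2, 11430 in M1 and 4616 in M2. The ranges overlapped, and the pools with the least muscle RNA had the most adipocyte RNA in each diet. In bulk RNA, fewer cells of a type and less RNA per cell cannot be told apart. Of the 12 tested adipocyte markers, none had a positive log2 fold change of DG over HY without a covariate (median -0.87, against 0.00 over all loci), and 2 of them were called lower. With muscle level in the model the median was -0.54 and 1 was called. The sums of endothelial, macrophage, lymphocyte, smooth muscle, fibroblast, keratinocyte, cartilage, Schwann cell and erythroid markers all overlapped between the diets. Lower medians were not particular to adipocyte markers. With muscle level in the model they were -1.27 for Schwann cell, -0.98 for erythroid, -0.56 for macrophage and -0.50 for lymphocyte markers. For the other lists named here they lay between -0.14 (smooth muscle) and 0.21 (fibroblast). Schwann cell markers stood at 6556 CPM in a single HY pool, against at most 893.1 CPM in any DG pool, and with muscle level in the model 1 of 9 was called lower in DG. The part of these other cells in the differences below was not tested.

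**Figure D1:**
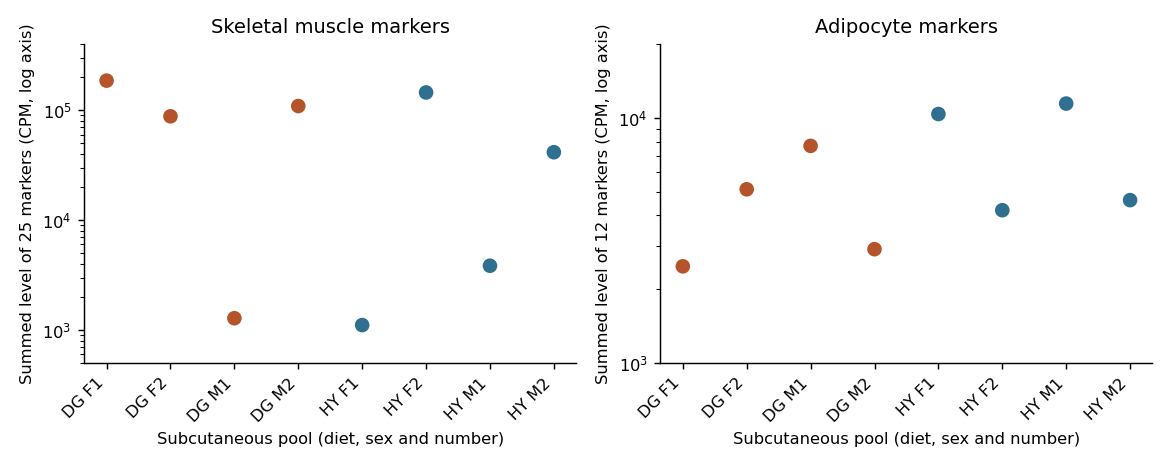
Summed CPM, on log axes, of 25 skeletal muscle markers (left) and 12 adipocyte markers (right) in each of the 8 subcutaneous pools, DG in orange and HY in blue, 1 point per pool. Muscle markers run from 1107 CPM in HY F1 to 185600 CPM in DG F1, and pools rich and poor in muscle RNA occur in both diets.

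DG was compared with HY by edgeR's quasi-likelihood test over 18008 loci, first without a covariate and then with the mean log2 level of the muscle markers as a covariate, which is the fit used to rank changes. A locus is called here at FDR ≤0.20, a lenient threshold. Without the covariate, 1943 loci were called, 10.8% of those tested, 1039 higher in DG (5.77%) and 904 lower (5.02%). With muscle level in the model 1869 were called (10.4%), 1091 higher (6.06%) and 778 lower (4.32%). Both fits shared 1520 called loci, all with the same sign. No locus passed FDR ≤0.05 in either, where the smallest FDR was 0.105 without and 0.0589 with muscle level, although 3265 and 3212 loci had an unadjusted p under 0.05. DESeq2 called 856 and 1002 loci at FDR ≤0.05.

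These counts rested on single pools. With muscle level in the model, leaving out DG M1, the only DG pool poor in muscle RNA, left 0 called loci at FDR ≤0.20. Leaving out HY M2 left 216, DG F2 287, DG M2 825 and HY M1 875, while leaving out DG F1 gave 2897. Without the covariate, 0 were left without DG M2, HY F1, HY M1 or HY M2 and 1 without DG F2, whereas 4070 were called without DG M1 and 5536 without HY F2. In the muscle-rich pools alone, 46 loci were called with muscle level in the model and 0 without it. Every change below is therefore a call of all pools together, and the counts of each gene group fall to 0 without DG M1. Of the 98 genes named by a fixed rule, 74 were called with muscle level in the model and 69 without (all loci, 10.4% and 10.8%). The rule picks many of these genes by the same tests, so their counts are a description. Of 777 genes with at least 10 times the level in fetal muscle than in perirenal fat, 636 loci were tested, and 48 were called without the covariate and 88 with it. Over all 18008 loci the counts were 1943 (10.8%) and 1869 (10.4%). Calls thus rose with the covariate among muscle-enriched loci and fell slightly over all loci.

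**Figure D2:**
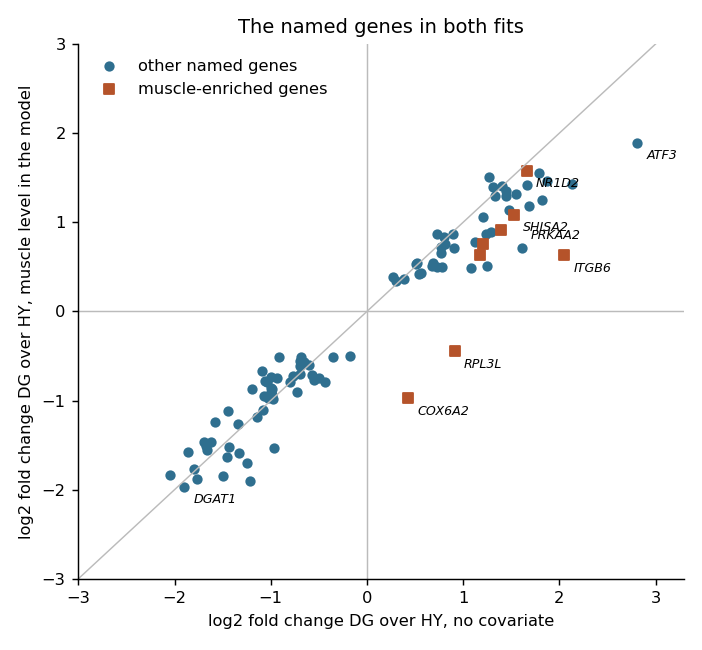
log2 fold change of DG over HY for the 98 named genes without a covariate (x axis) and with muscle level in the model (y axis), 1 point per gene, with muscle-enriched genes as orange squares and the line of equality in grey. COX6A2 and RPL3L, both muscle-enriched, change sign between the fits (0.43 to -0.98 and 0.91 to -0.45), and ITGB6 moves from 2.05 to 0.63.

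Among genes of the lipid droplet and of lipolysis, those that passed the test were lower in DG. Of 24 tested, 5 were called lower (20.8%, against 4.32% of all loci) and none higher, with a median log2 fold change of -0.36 against -0.01 over all loci. The 12 adipocyte markers had a median of -0.54 in the same fit, with 1 of 12 positive, and their part in the lipid gene results was not tested. The 19 members with an interval of their own had a median length of 13.8 kb, against 21.1 kb over such loci, and shorter loci were more often lower in DG, as given below. The median was -0.70 between the muscle-poor pools and -0.33 between the muscle-rich pools. CIDEA, a lipid droplet protein that promotes storage, lay at 13.3, 11.9, 19.7 and 19.3 CPM in DG F1, F2, M1 and M2 and at 86.4, 31.9, 43.7 and 45.2 CPM in the same pools of HY. All DG pools were below all HY pools, and the log2 fold change was -1.47 ± 0.43 (SE, FDR 0.121). ADRB3, the adrenergic receptor that starts lipolysis in fat cells, had 2.87, 4.16, 4.65 and 3.1 CPM in DG and 19.3, 5.99, 8.22 and 10.9 CPM in HY. The ranges did not overlap either, with a log2 fold change of -1.24 ± 0.38 (FDR 0.126), and the gene was at 0 CPM in the muscle pools. PNPLA3, a lipid droplet hydrolase, was lower by a log2 fold change of -0.87 ± 0.32 (FDR 0.181), with 8.31 ± 3.08 CPM in DG and 18.9 ± 7.51 in HY (SD, n = 4). The monoacylglycerol lipase ABHD6 and the hormone-sensitive lipase LIPE were the other called members, at log2 fold changes of -0.74 ± 0.22 (FDR 0.119) and -1.15 ± 0.43 (FDR 0.198). CIDEC, a relative of CIDEA that enlarges droplets, had 32.8 ± 8.51 CPM in DG and 61.9 ± 43.7 in HY and did not pass (FDR 0.534). The 5 calls became 3 without DG M2 or HY F1, 2 without HY F2 or HY M1, and 0 without DG F2, DG M1 or HY M2.

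DGAT1, which joins the last fatty acid to make triglyceride, showed the lowest fold change of the ranked genes (XLOC_030724, chromosome 9, 13566141 to 13576105). It stood at 37.8, 26.6, 15.9 and 29.1 CPM in DG F1, F2, M1 and M2 and at 129, 56.3, 102 and 122 CPM in HY. The highest DG pool was below the lowest HY pool, and the log2 fold change was -1.97 ± 0.54 (FDR 0.106). The difference was -2.82 between the muscle-poor pools and -1.41 between the muscle-rich pools. AGPAT2, an earlier step of the same pathway, lay at 13.3 ± 2.84 CPM in DG and 41.0 ± 18.6 in HY without overlap but missed the threshold with muscle level in the model (log2 fold change -1.47 ± 0.56, FDR 0.204). AGPAT9, an acyltransferase of the first step that was muscle-enriched here, was higher in DG (0.76 ± 0.25, FDR 0.149). Of 15 tested triglyceride synthesis genes, 1 was called higher and 1 lower (6.67% each, against 6.06% and 4.32% of all loci). ANGPTL4, a secreted inhibitor of lipoprotein lipase, had 30.1, 27.6, 34.8 and 27.6 CPM in DG and 111, 48.9, 92.3 and 73.4 CPM in HY. Every DG pool lay below every HY pool (log2 fold change -1.12 ± 0.35, FDR 0.133).

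Fatty acid transport genes were lower in DG where they passed. Of 24 tested, 3 were called lower (12.5%, against 4.32% of all loci), ANGPTL4 among them, and none higher (against 6.06%). The lists share members, so their shares are not independent of each other. ANGPTL4 is also counted among the secreted adipokines, and CIDEA and ADRB3 among both lipid droplet and brown fat genes. SREBF2 is the lower call among fatty acid synthesis genes and is counted again among cholesterol genes. SLC27A3 and SLC27A4, acyl-CoA synthetases of the fatty acid transport family, had log2 fold changes of -1.51 ± 0.39 (FDR 0.0866) and -0.98 ± 0.37 (FDR 0.196). Without DG F2, DG M1 or HY M2 no member was left, and 1 was left without DG M2 or HY M1. Among 32 fatty acid synthesis genes, 1 was called higher and 1 lower (3.12% each, below the 6.06% and 4.32% of all loci), with a median log2 fold change of -0.22 and 5 of 32 positive. The higher one was PRKAB2, a regulatory subunit of the AMP-activated kinase, which restrains fatty acid synthesis. It had 197, 252, 92.4 and 230 CPM in DG and 54.3, 134, 66.3 and 99.6 CPM in HY, so that DG M1 lay among the HY pools (log2 fold change 0.78 ± 0.14, FDR 0.0589). PRKAA2, the catalytic subunit found in muscle, differed by 1.61 without and 0.71 with muscle level and passed in neither fit (FDR 0.311 and 0.262). MLXIPL, a glucose-sensing activator of lipogenic genes, was at 26.1 ± 4.70 CPM in DG and 54.7 ± 30.5 in HY. It passed without the covariate (-1.06, FDR 0.156) and not with it (-0.78 ± 0.34, FDR 0.257), as did AACS, which makes acetoacetyl-CoA for lipid synthesis (-1.04, FDR 0.159, and -0.79 ± 0.34, FDR 0.252).

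Cholesterol genes showed the next largest share of lower calls after lipid droplet genes. Of 31 tested, 6 were called lower (19.4%, against 4.32%) and 1 higher, with 3 of 31 positive and a median log2 fold change of -0.30. The median was -0.25 between the muscle-poor and -0.36 between the muscle-rich pools. SREBF2, the transcription factor that activates cholesterol genes, was at 48.0 ± 10.5 CPM in DG and 61.2 ± 10.4 in HY with overlapping pools, and passed only with muscle level in the model (-0.51 ± 0.16, FDR 0.134). TM7SF2, a sterol reductase, STARD3, which moves cholesterol out of endosomes, and the lipoprotein receptor SCARB1 were also lower, at log2 fold changes of -0.87, -0.50 and -0.70 (FDR 0.139, 0.144 and 0.16). PMVK, a kinase of the mevalonate pathway, was the member called higher (0.54 ± 0.19, FDR 0.171). The 6 lower calls fell to 3 without HY M1, to 1 without DG M2 or HY F2 and to 0 without DG F2, DG M1 or HY M2.

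In fatty acid oxidation, 2 of 37 genes were called higher and 2 lower, a share near the background in both directions. ACOX3, a peroxisomal oxidase of branched-chain fatty acids, was lower in DG (-0.56 ± 0.19, FDR 0.156), with 46.5 ± 4.27 CPM in DG and 75.4 ± 12.3 in HY without overlap. CPT1A, which admits fatty acids to mitochondria in most tissues, had 129 ± 44.8 CPM in DG and 275 ± 107 in HY and did not pass (-0.67 ± 0.29, FDR 0.257). Of 21 brown fat genes, 1 was called higher (4.76%, against 6.06%) and 2 lower (9.52%, against 4.32%). The 2 lower ones were CIDEA and ADRB3, and the higher one was TBX15, a muscle-enriched gene here with 34.5 CPM in DG M1 against 191 to 235 CPM in the other DG pools. Secreted adipokines had 2 of 16 called lower (12.5%, against 4.32%), ANGPTL4 and the chemokine RARRES2 (-0.51 ± 0.19, FDR 0.194).

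**Figure D3:**
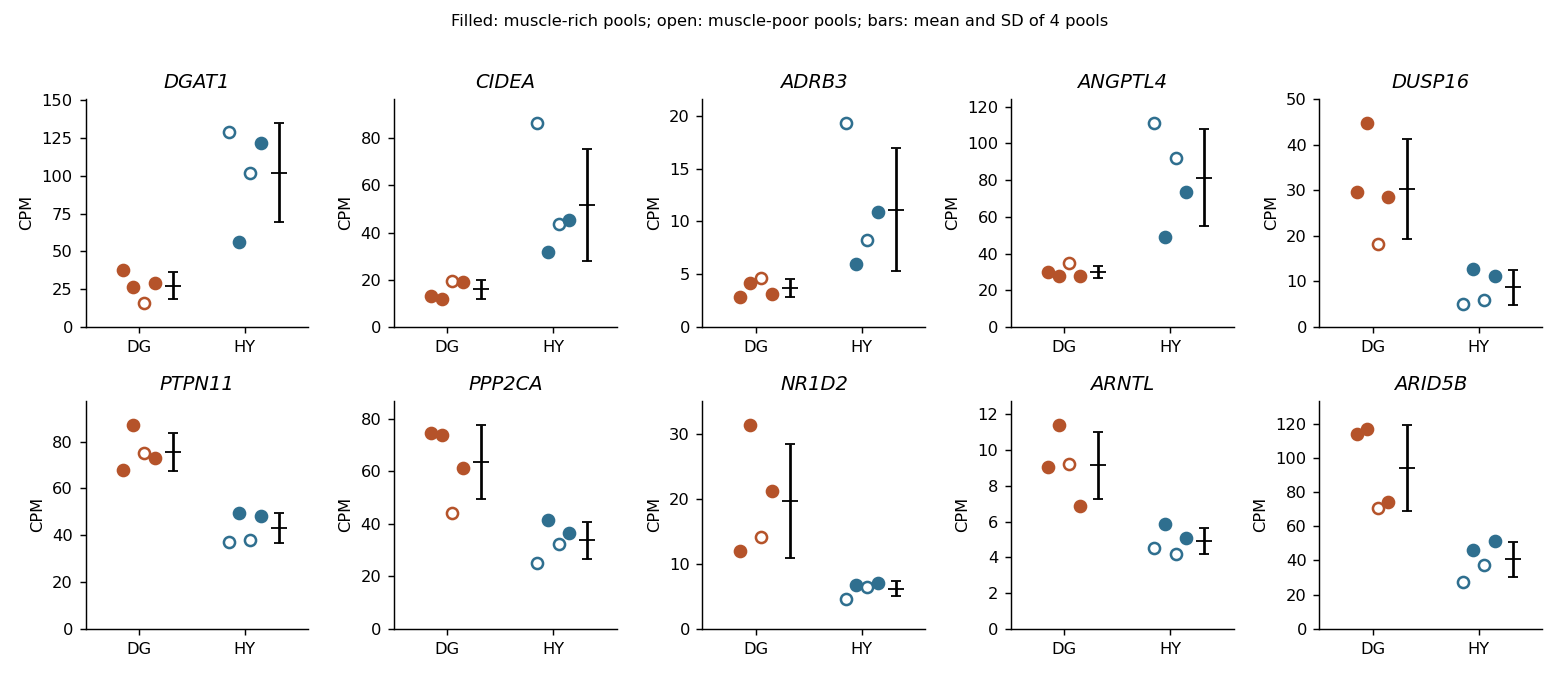
CPM of 10 genes in each DG and HY pool, filled for muscle-rich and open for muscle-poor pools, with the mean and SD of 4 pools beside them. In each panel the 4 DG pools lie on one side of the 4 HY pools, below them for DGAT1 to ANGPTL4 and above them for DUSP16 to ARID5B. All 10 are drawn from the named genes without overlap, and others, such as PRKAB2, AMOT and TGFB2, overlapped. Of all tested loci, 4.45% lay wholly higher and 4.74% wholly lower in DG.

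Regulators of fat cell formation moved in both directions, 2 of 28 called higher and 2 lower, a share near the background. ARID5B, a chromatin-associated protein needed for fat storage in mice (XLOC_020665, chromosome 25, 17796368 to 17988978), had 114, 117, 70.7 and 74.1 CPM in DG F1, F2, M1 and M2 and 27.5, 46.1, 37.6 and 51.3 CPM in HY. Every DG pool was above every HY pool (log2 fold change 1.06 ± 0.18, FDR 0.0589), by 1.13 between the muscle-poor and 1.03 between the muscle-rich pools. STAT5A, which carries growth hormone and prolactin signals, had 39.8 ± 3.47 CPM in DG and 76.0 ± 23.5 in HY without overlap (-0.75 ± 0.18, FDR 0.0814). The glucocorticoid receptor NR3C1 was higher (0.43 ± 0.15, FDR 0.161) and GATA3, which holds back fat cell differentiation, was lower (-0.60 ± 0.23, FDR 0.2).

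Clock genes had 2 of 20 members called, both higher in DG (10%, against 6.06% of all loci). With so few calls the share is near the background, and the 2 are given as single genes. The fold change was positive in 17 of 20 (median 0.23, against -0.01 over all loci). NR1D2 encodes REV-ERB beta, a haem-binding repressor of the clock and of lipid genes (XLOC_021385, chromosome 26, 40487127 to 40503568). It had 12.0, 31.4, 14.1 and 21.3 CPM in DG and 4.53, 6.71, 6.44 and 7.13 CPM in HY. The ranges did not overlap, and the log2 fold change was 1.58 ± 0.31 (FDR 0.0623). NR1D2 counts as muscle-enriched because its level in longissimus dorsi, 137 CPM, was at least 10 times that in perirenal fat. In HY F2 the muscle markers would predict 126 CPM of the total for NR1D2, and 5.77 was measured. Such a gap was not particular to NR1D2, since the prediction exceeded the measured level in some pool for 66 of 97 named genes. The part of muscle RNA in the NR1D2 difference was not tested. ARNTL, the positive partner of CLOCK that NR1D2 represses, had 9.05, 11.4, 9.21 and 6.85 CPM in DG and 4.53, 5.86, 4.19 and 5.08 CPM in HY. Here too no DG pool reached down to HY (0.87 ± 0.23, FDR 0.0910), while CLOCK itself lay at 4.71 ± 2.13 and 2.82 ± 1.29 CPM and did not pass (FDR 0.243). Time of day at collection is not given in the sources used here.

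Phosphatase genes were higher in DG more often than lower. Of 88 tested, 15 were called higher (17.0%, against 6.06%) and 4 lower (4.55%, against 4.32%), and the median log2 fold change was 0.12. The median was 0.04 between the muscle-poor and 0.16 between the muscle-rich pools. Phosphatases were taken up because the study names this activity for DG on these same samples, so their count is not independent evidence of a direction. The median interval of the 60 members with an interval of their own was 50.7 kb, against 21.1 kb over such loci, a property that moved with the calls as given below. DUSP16, which removes phosphate from stress-activated MAP kinases (XLOC_022560, chromosome 3, 202123181 to 202213674), had 29.6, 44.7, 18.3 and 28.5 CPM in DG and 5.11, 12.8, 5.89 and 11.2 CPM in HY. It had the largest positive fold change of the ranked genes and no overlap (1.55 ± 0.22, FDR 0.0589), and its level in muscle pools was 4.74 CPM. PTPN11, the phosphatase SHP2 that passes on growth factor signals, had 67.9, 87.1, 75 and 72.9 CPM in DG and 37.1, 49.5, 38.1 and 48.2 CPM in HY. The log2 fold change was 0.75 ± 0.14 (FDR 0.0623), with 0.99 between the muscle-poor and 0.62 between the muscle-rich pools. PPP2CA, a catalytic subunit of protein phosphatase 2A, had 74.5, 73.7, 44.3 and 61.3 CPM in DG and 24.9, 41.4, 32.4 and 36.6 CPM in HY, a log2 fold change of 0.71 ± 0.14 (FDR 0.0623) with no overlap. Among the others called higher were the protein phosphatase 1 catalytic subunits PPP1CB and PPP1CC (0.39 and 1.07), PPM1A and PPM1B (0.42 and 0.68), the tyrosine phosphatases PTPN2 and PTPN14 (0.50 and 1.01) and the phosphoinositide phosphatase MTMR1 (1.11). FBP2, also higher (1.22 ± 0.44, FDR 0.182), is the muscle form of fructose bisphosphatase, a sugar phosphatase. The 4 lower members were PPM1M (-0.62), the receptor phosphatases PTPRZ1 (-1.49) and PTPRE (-0.93), and G6PC3 (-0.86), which acts on glucose 6-phosphate. The count of 15 became 9 without DG M2, HY F2 or HY M1, 7 without HY M2, 6 without DG F2 and 0 without DG M1.

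Wnt, TGF-beta and integrin genes had 7 of 42 called higher (16.7%, against 6.06% of all loci) and 3 lower (7.14%, against 4.32%). The median log2 fold change was 0.15, and it turned from 0.39 between the muscle-poor pools to -0.09 between the muscle-rich pools. TGFB2, a secreted growth factor of the TGF-beta family, had 112, 134, 46.8 and 113 CPM in DG and 25, 66, 32.3 and 42 CPM in HY, with DG M1 below HY F2 (0.89 ± 0.19, FDR 0.0677). Its type I receptor TGFBR1 and the signal carriers SMAD2 and SMAD4 were also higher, at 0.49 ± 0.16, 0.37 ± 0.12 and 0.43 ± 0.12 (FDR 0.143, 0.142 and 0.0946). LRP6, a Wnt co-receptor, was at 98.2 ± 17.3 CPM in DG and 57.8 ± 13.6 in HY without overlap (0.66 ± 0.15, FDR 0.0681). KREMEN1, which removes LRP6 from the surface when bound by a Wnt antagonist, was higher (1.59 ± 0.55, FDR 0.168). SFRP5, a secreted Wnt antagonist of adipose tissue, had 4.14, 3.3, 3.8 and 6.06 CPM in DG and 12.4, 32.7, 7.60 and 6.57 CPM in HY. The DG pools were lower (-1.88 ± 0.48, FDR 0.0866), although DG M2 and HY M2 lay close together. Follistatin (FST), which binds activins and myostatin, and ITGB7 were the other lower members (-0.61 ± 0.19 and -0.82 ± 0.30). The 7 higher calls became 4 without HY F1, 3 without HY M1, 2 without DG F2, 1 without HY M2 and 0 without DG M1.

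Both subunits of the tuberous sclerosis complex, which restrains the growth kinase mTOR, were called, in opposite directions. TSC2 lay at 71.0, 50.3, 55.4 and 53.6 CPM in DG and 106, 76.9, 103 and 107 CPM in HY (log2 fold change -0.72 ± 0.16, FDR 0.0681). TSC1 lay at 15.0, 30.9, 18.2 and 19.4 CPM in DG and 13.5, 11.9, 9.38 and 14.1 CPM in HY (0.72 ± 0.24, FDR 0.156). Neither gene had overlapping pools. TBC1D4, which controls the glucose transporter of fat and muscle cells in response to insulin, was at 53.1 ± 24.8 CPM in DG and 19 ± 5.58 in HY with DG M1 (23.3 CPM) below HY F2 (27.2 CPM) (1.14 ± 0.25, FDR 0.0681). In all, 2 of 29 insulin and IGF genes were called higher and 1 lower, a share near the background.

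Chromatin genes had 6 of 62 called higher (9.68%, against 6.06%) and none lower (against 4.32%). As a group they hardly moved, with 35 of 62 positive and a median log2 fold change of 0.04. The median was -0.07 between the muscle-poor and 0.09 between the muscle-rich pools. The 39 members with an interval of their own had a median length of 34.6 kb, against 21.1 kb over such loci. The set held ARID5B. SATB1, which organises chromatin loops, had 23.8, 30.4, 5.32 and 29.7 CPM in DG and 2.99, 13.2, 3.49 and 5.51 CPM in HY, with DG M1 again within the HY range (1.25 ± 0.27, FDR 0.0677). The DNA methyltransferase DNMT3B was at 100 ± 17.4 CPM in DG and 62.3 ± 13.1 in HY without overlap (0.54 ± 0.13, FDR 0.0793). The acetyltransferase KAT2B, the remodeller SMARCA2 and the histone methyltransferase SETD2 were higher by 0.61, 0.37 and 0.32. The 6 calls became 4 without HY F1 or HY M1, 3 without DG F2 or DG M2, 2 without HY M2 and 0 without DG M1.

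The study names 19 genes in this depot as changed in DG against both other diets. With muscle level in the model, 7 were called higher (36.8%, against 6.06% of all loci) and 3 lower (15.8%, against 4.32%). Without it, 5 were called in each direction. KREMEN1, which the study names for DG against CN and measured by qRT-PCR, is not among the 19. These genes were picked on these samples, so the counts are a description. Of the 19, ITGB6, SHISA2, SOX6 and NR1D2 were muscle-enriched. AMOT, which binds cell junctions and restrains growth signals (XLOC_033277, chromosome X, 115700917 to 115768057), had 272, 399, 83.6 and 281 CPM in DG and 47.9, 153, 55.1 and 67.2 CPM in HY. Its log2 fold change was 1.68 without and 1.18 ± 0.20 with muscle level (FDR 0.132 and 0.0589). ITGB6, an integrin subunit, had 183, 213, 1.33 and 203 CPM in DG and 1.73, 105, 3.80 and 33.9 CPM in HY. All 3 muscle-poor pools were under 4 CPM, the muscle-rich pools differed by 1.73 on the log2 scale, and the gene did not pass (0.63 ± 0.34, FDR 0.355). SHISA2, which acts on Wnt and FGF receptors, and the transcription factor SOX6 passed only with muscle level in the model (1.08 ± 0.30, FDR 0.103, and 0.91 ± 0.26, FDR 0.104). UBR3 and WDTC1, higher in the mean of DG at 189 ± 97.1 against 89.2 ± 40.4 CPM and 14.2 ± 6.84 against 5.98 ± 2.43 CPM, passed in neither fit.

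The other genes ranked highest for an increase in DG were GPRASP1, RNF150, ZNF474, a locus named FECB, INADL, NRK, AFF1, TNKS2, LARP4, CTNNAL1 and SATB1, with log2 fold changes from 1.25 to 1.51. They were the top 12, with DUSP16, of 772 named genes that met the rule. In 6 of the 12 the pools did not overlap between the diets, but the rule selects for this and 4.45% of all tested loci lay wholly higher in DG. TNKS2, a tankyrase that marks proteins for breakdown, had 71.0, 133, 47.4 and 73.8 CPM in DG and 16.2, 33.1, 29.2 and 32.2 CPM in HY (1.32 ± 0.24, FDR 0.0623). CTNNAL1, an alpha-catenin relative, had 61.2, 124, 105 and 83.3 CPM in DG and 23.0, 55.3, 27.4 and 42.7 CPM in HY (1.29 ± 0.26, FDR 0.0623). NRK, a kinase best known from the placenta, was at 84.1 ± 42.0 CPM in DG and 33.8 ± 10.2 in HY (1.4 ± 0.38, FDR 0.0997), with DG F1 (29.9 CPM) within the HY range. Among decreases, after DGAT1 and SFRP5, the rule named ARSA, FAM195A, TUBA8, PC, ALKBH7, ABCA9, C1orf167, ETV4, AP5Z1 and SLC27A3 out of 395, and 9 of the 12 did not overlap, against 4.74% of tested loci wholly lower in DG. ABCA9, a lipid transporter, had 7.33, 7.07, 13.4 and 7.38 CPM in DG and 35.6, 19.4, 54.2 and 18.4 CPM in HY (-1.58 ± 0.30, FDR 0.0623). PC, the pyruvate carboxylase that supplies oxaloacetate for fatty acid and glycerol synthesis, had 11.3, 6.34, 3.89 and 6.46 CPM in DG and 27.3, 15.3, 17.7 and 16.9 CPM in HY (-1.63 ± 0.58, FDR 0.181). In both genes the lowest HY pool was above the highest DG pool. Of the 98 named genes, 33 share their interval with another locus, DUSP16 and TNKS2 among them, and the counting settings for overlapping genes and strand are not given in the sources used here, so their reads may be shared.

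The remaining groups held between 0 and 3 calls in either direction. Their shares ran from 0% to 8.82% called higher (most in proteasome genes), against 6.06% of all loci. Shares called lower ran from 0% to 7.69% (most in stress genes), against 4.32%. The members named below are therefore given as single genes and not as results of their groups. Collagen chains had 0 of 33 called higher and 1 lower, COL18A1 (-1.26 ± 0.36, FDR 0.109), with 22.4 ± 4.72 CPM in DG and 56.6 ± 13.5 in HY. Elastic fibre genes had 1 of 35 higher. Citrate cycle genes had 1 of 23 in each direction, SUCLG2, a subunit of succinyl-CoA synthetase (0.50 ± 0.13, FDR 0.0935), and PC. Respiratory chain genes had 0 of 53 higher and 2 lower, ATP5I (-0.86 ± 0.27, FDR 0.134) and COX6A2, a muscle isoform. COX6A2 had -0.98 ± 0.29 (FDR 0.12) with muscle level in the model, but 0.43 (FDR 0.892) without it and 0.26 between the muscle-rich pools. Cytosolic ribosomal proteins had 1 of 35 lower and mitochondrial ones 1 of 61, with reads that may be split among near-identical copies. Cell division genes had 1 of 49 higher, the condensin SMC2 (0.83 ± 0.22, FDR 0.0887), and 3 lower, among them the replication licensing genes MCM7 (-0.57 ± 0.15, FDR 0.0857) and CDT1 (-0.97 ± 0.28, FDR 0.113). Proteasome genes had 3 of 34 higher and 1 lower, the immunoproteasome subunit PSMB10 (-0.95 ± 0.25, FDR 0.0926). Of 32 genes that respond to amino acid shortage, 1 was higher and 2 lower, the aminoacyl-tRNA ligase CARS and PHGDH of serine synthesis (-0.79 ± 0.19 and -1.11 ± 0.35). CARS was at 29.1, 20, 25.4 and 21.1 CPM in DG and 44.8, 39.2, 42.6 and 39.4 CPM in HY, without overlap. Of 26 stress and immediate early genes, 2 were lower, ADM and JUNB. ATF3, a stress-induced factor, had 215, 43.1, 30.9 and 199 CPM in DG and 13.6, 6.58, 11 and 38.5 CPM in HY and passed only without the covariate (FDR 0.166, then 0.265).

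**Figure D4:**
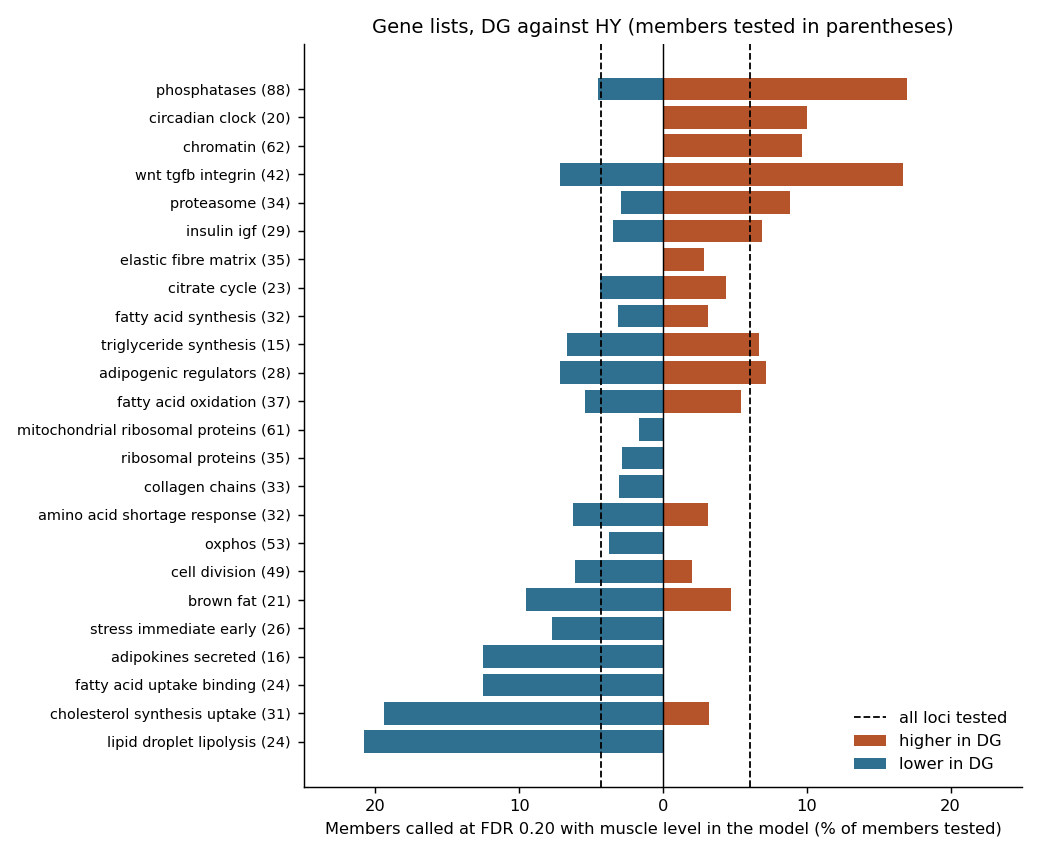
Share of tested members called at FDR ≤0.20 with muscle level in the model, higher in DG to the right and lower to the left, for 24 gene lists, with the share of all loci as dashed lines (6.06% and 4.32%). Lipid droplet (20.8%) and cholesterol genes (19.4%) extend furthest to the left, phosphatases (17.0%) and Wnt, TGF-beta and integrin genes (16.7%) furthest to the right.

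Called loci differed in the length of the genomic interval that the files give. Over 8513 tested loci with a name and an interval of their own, the median was 21.1 kb (quartiles 8.4 and 50.1 kb). It was 41.9 kb for the 539 such loci called higher in DG and 12.3 kb for the 407 called lower. Of the loci at or above the upper quartile 10.9% were called higher and 1.41% lower, and of those at or below the lower quartile 2.77% and 6.39%. Without the covariate the medians were 38.4 and 13.2 kb. From pool to pool, the median log2 level of these longest loci minus that of the shortest, each relative to the mean of all 12 pools, was -0.16, 0.30, 0.13 and 0.08 in DG F1, F2, M1 and M2 and -0.29, -0.23, 0.01 and -0.11 in HY. DG F1 lay within the HY range and the other DG pools above it. The part of interval length, and of what may vary with it in a library, in the gene group results was not tested.

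**Figure D5:**
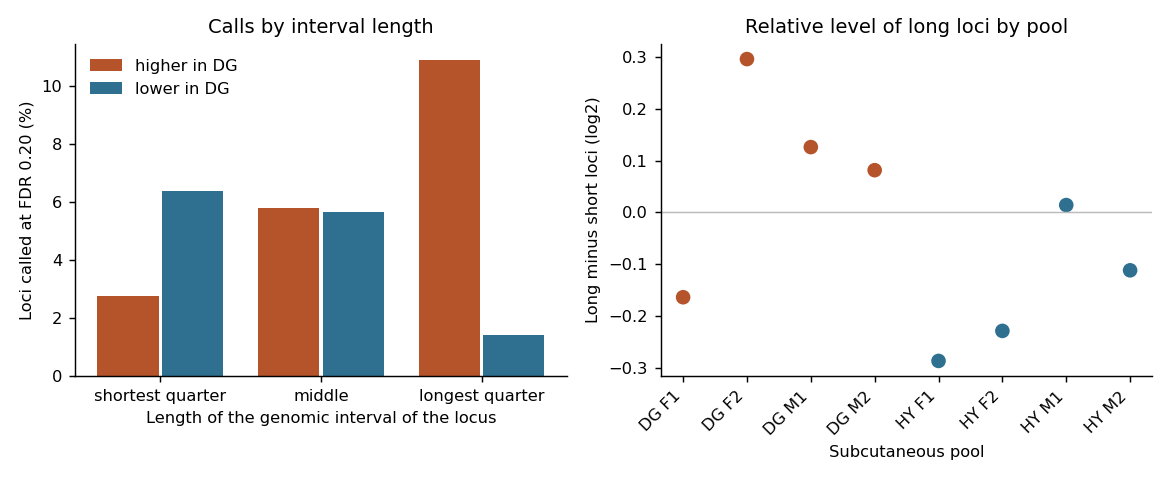
Left, percent of loci called higher (orange) or lower (blue) in DG with muscle level in the model, for the shortest (up to 8.4 kb), middle and longest (from 50.1 kb) genomic intervals. Right, log2 level of long minus short loci in each pool, where DG F2, M1 and M2 lie above all HY pools and DG F1 does not.

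On the muscle-poor side the comparison is of DG M1 with HY F1 and HY M1, with no test. On the muscle-rich side it is of 3 DG with 2 HY pools. Muscle RNA was not equal within a side. The muscle markers themselves had median log2 differences, DG over HY, of -0.66 in the muscle-poor and 1.16 in the muscle-rich pools. The part of this difference in the medians of the gene groups was not tested. Of the 1869 loci called with muscle level in the model, 1849 (98.9%) had the called direction on both sides, against 61.5% of all tested loci, but the calls were made on these same pools. The groups differed in how even they were. Oxidative phosphorylation genes had a median of -0.47 in the muscle-poor and 0.12 in the muscle-rich pools, citrate cycle genes -0.50 and 0.26, and fatty acid oxidation genes -0.47 and 0.26. Elastic fibre and collagen genes went the other way, at 0.58 and -0.10 and at 0.43 and -0.13. COL14A1 alone was at 97.2 CPM in DG M1 against 29.2 to 48.4 CPM in the other 7 pools. Lipid droplet, cholesterol, fatty acid synthesis and phosphatase medians kept their sign on both sides.

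In perirenal fat, the other depot sampled from these fetuses, the same contrast called 0 of 18246 loci (0%) by edgeR at FDR ≤0.20, with a smallest FDR of 0.208 and 1800 loci at an unadjusted p under 0.05. DESeq2 called 485, and edgeR called 308 without DG F1, 14 without DG M2 and 9 without HY M2. DGAT1 was at 562 ± 136 CPM in DG and 353 ± 79.5 in HY there (log2 fold change 0.67, FDR 0.323), the opposite sign to subcutaneous fat. CIDEA lay at 164 ± 40.9 and 129 ± 28.8 CPM (0.34, FDR 0.630), ANGPTL4 at 304 ± 137 and 200 ± 55.6 CPM (0.60, FDR 0.519) and ADRB3 at 38.1 ± 10.3 and 33.5 ± 4.11 CPM (0.18, FDR 0.783). Of the genes higher in DG in subcutaneous fat, DUSP16 (-0.18), PTPN11 (-0.10) and PPP2CA (-0.27) had negative fold changes in perirenal fat and NR1D2 (0.33) and ARID5B (0.28) positive ones, none of them called. Cholesterol genes had a median of -0.30 in perirenal fat, as in subcutaneous fat, against -0.02 over all perirenal loci. The perirenal median was -0.02 for lipid droplet, 0.08 for fatty acid transport, -0.04 for phosphatase and 0.36 for Wnt, TGF-beta and integrin genes. The summed muscle markers of the 12 perirenal pools were 72.83 to 832.9 CPM of the total, below each of the 8 subcutaneous pools. The difference between the depots was not tested.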

How the data were processed

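The authors aligned reads with TopHat2 2.0.4 to Oar_v3.1, allowing 2 mismatches and at most 40 locations, and assembled loci with Cufflinks 2.1.1, merged per tissue. The submitters' notes also name HTSeq, whose settings are not given in the sources used here. The deposited values are raw read counts per locus, 1 file per pool, without normalization. Loci (34246 in subcutaneous fat, 25614 named) carry numbers of their own in each tissue, and gene names linked the tissues. A symbol at several loci was followed at the locus with the most counts.

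The filter filterByExpr took out weakly counted loci (minimum count 10, minimum total 15). Counts were TMM-scaled and tested by the quasi-likelihood test of edgeR 4.0.16 (R 4.3.3) over all 12 subcutaneous pools, contrast DG minus HY, with Benjamini-Hochberg adjustment. The covariate was the mean log2 CPM of the muscle markers, with 0.5 CPM added. SEs are the log2 fold change over the root of F and are approximate. FDR ≤0.20 is the level at which the study took genes into its enrichment tests, and FDR ≤0.05 its threshold for single genes. DESeq2 1.42.0 was an alternative. Muscle-rich pools are those above 10% of the muscle level of the markers. Differences between the muscle-poor pools, and between the muscle-rich pools, are of log2 CPM with 0.5 added. Scripts were tested on simulated data.

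Named genes were the 12 largest changes per direction (FDR ≤0.20 with muscle level, same sign without it, mean of at least 5 CPM, not muscle-enriched with 0.1 CPM added to both levels). To these came the 19 genes the study names for DG against both other diets, and up to 3 members of each list with the lowest p. Some genes that met this rule are not reported here. Genes named beyond these were chosen after their values were seen. Members and lists were chosen with earlier results of these data known. Pools of 1 diet differed well beyond sampling error (chi-square per degree of freedom 21.9 to 337), so none was counted as a copy.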

Additional observations from a re-analysis of the deposited data

Results flagged for a closer look

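In a group of 4 pools, a pool was marked when its gap to the nearest other pool exceeded Dixon's 95% critical share of the range of log2 levels in the group. Chance marks about 1 in 20 groups, and 17 of 198 were marked. Muscle-poor DG M1 accounted for most of them: its muscle marker sum was 1280 CPM, and it was lowest of its diet for ITGB6 (1.33 CPM), SATB1 (5.32), PRKAA2 (9.87), SOX6 (12.6), SHISA2 (14.8), TBX15 (34.5), UBR3 (50.6) and SUCLG2 (129). DG M1 was highest for JUNB (2.09 CPM), ABCA9 (13.4) and COL14A1 (97.2). The others were LARP4 in HY F1 (2.6 CPM), TUBA8 in HY M1 (10.8), EFEMP2 in DG F1 (19.4), ADM in HY M2 (37) and TSC2 in HY F2 (76.9). MRPL2 was lower in every DG pool than in every HY pool of subcutaneous fat and higher in every DG pool of perirenal fat (perirenal log2 fold change 0.409). That difference between depots was not tested.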

How the results depend on the processing

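Without the covariate, 1943 loci called at FDR ≤0.20 became 651 without a filter, 3000 with DESeq2, 3741 with the replicate block, 926 with 8 pools only, 0 in the muscle-rich pools only and 0 with muscle reads subtracted, an estimate that takes off more than was measured for 66 of 97 named genes in some pool. Leaving out 1 pool gave 0 to 5536. At FDR ≤0.05, 0 became 856 with DESeq2, 265 with the block and 0 to 579 without 1 pool (579 without HY F2). With muscle level in the model, 1869 became 1081 without a filter, 2826 with DESeq2, 3058 with the replicate block, 46 in muscle-rich pools and 0 to 2897 without 1 pool; at FDR ≤0.05, 0 became 12, 1002, 434, 2 and 0 to 385. The share of calls that were higher in DG, 58.37%, was 46.08% with the block, 13.04% in muscle-rich pools and 72.22% without HY M2; without the covariate it was 53.47%, and 42.87% with 8 pools only. In perirenal fat, 0 became 485 with DESeq2 and 0 to 308 without 1 pool, and at FDR ≤0.05 95 and 0 to 1. The muscle marker difference was positive throughout (0.449 to 3.261 without 1 pool).

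COL14A1 turned to -0.1409 without DG M1 (0.9188 without HY F2) and to -0.08415 in muscle-rich pools, and without the covariate COX6A2 turned to 0.43 and RPL3L to 0.91. No other named gene changed sign in the 18 alternatives. Of 98, 74 lost their call without DG M1 and 71 in the muscle-rich pools. RLE scaling, sex in the model, the linear muscle share and the first component of the markers left the counts within 1.5 times where they applied. For the replicate block, the deviations of same-numbered DG and HY pools correlated across loci at 0.142 on average (-0.438 to 0.589, 4 pairs), so the numbers were not taken to pair pools. The muscle-rich fits and the fit without covariate for single genes were added after the data were seen. The causes were not tested. Depth was 9416187 counts or more per pool.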

Other observations

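The 4 CN pools were in the fits but were not compared in the contrast. For DUSP16 they lay between 6.68 and 11 CPM, for NR1D2 between 4.43 and 7.37 CPM and for ARID5B between 43.3 and 57.2 CPM, below every DG pool. This held for 15 of the 36 named genes called higher in DG with muscle level in the model. Of the 38 called lower, 7 had every CN pool above every DG pool. The lipid genes spread widely in CN, with DGAT1 between 20.1 and 94.3 CPM, CIDEA between 22.8 and 82 CPM and ANGPTL4 between 19.7 and 86.1 CPM, so that DGAT1 and ANGPTL4 overlapped both diets and CIDEA overlapped HY alone. These genes were chosen for their difference between DG and HY, and their levels in CN were not tested.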
